A study of Mus musculus with 48 samples.

Results

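Adult neurogenesis in the dentate gyrus was followed through 9 genes, Dcx, Sox11, Sox4, Neurod1, Eomes, Igfbpl1, Calb2, Draxin and Cd24a, out of 48709 genes listed in the count files. They were taken by symbol, and each symbol matched 1 Ensembl identifier. The set was put together with measured values in view, above all the counts at 3 and 8 months of age by Fmn2 genotype. In that experiment the 9 genes are therefore described and not tested. Tests are given for the other experiments and for 70 further neurogenesis genes, although these too were chosen with results of the series known, so that their p-values are not independent of the choice.

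The RNA came from the dentate gyrus, the hippocampal region whose granule neurons send the mossy fibres, of male C57BL/6J mice. Fmn2 encodes Formin 2, an actin nucleator, and Fmn2-/- mice lack it in all cells from conception. The first experiment compared Fmn2+/+ mice (wild type) with Fmn2-/- mice (knockout) at 3 months, with 5 mice each, and at 8 months, with 3 Fmn2+/+ and 5 Fmn2-/- mice. The second, a cross with the APPPS1-21 amyloid line, held 7 mice labelled FMN2-/-_APP and 9 mice labelled FMN2 +/+ APP at 3 months, all of which carry transgenes for mutant human APP and presenilin 1 that are driven in neurons by the Thy1 promoter. The third held 6 mice labelled APP and 6 labelled wild type at 4 months. Its titles name the prefrontal cortex (PFC), although the tissue label says dentate gyrus. In all, 48 libraries of 46 mice in 8 groups were used.

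New granule neurons arise throughout life from radial glia-like stem cells in the subgranular zone. The stem cells give rise to intermediate progenitors, which divide and become neuroblasts and then immature neurons that extend dendrites and a mossy fibre axon before they mature. Output is high in young mice and declines strongly during the first year. Eomes (also known as Tbr2) marks the intermediate progenitors. Neurod1, Sox4 and Sox11 are transcription factors that drive the step to a neuron, and Neurod1 stays on in mature granule neurons. Dcx binds microtubules in migrating neuroblasts, Cd24a is a small surface glycoprotein of the same cells and of ciliated ependymal cells, Igfbpl1 is a secreted relative of the insulin-like growth factor binding proteins, Draxin is a secreted axon guidance cue, and Calb2 encodes calretinin, a calcium-binding protein of immature granule neurons that mossy cells and interneurons also contain.

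All values below are CPM, read counts relative to library size with TMM scaling over all mice, unless they are given per kilobase of exon (RPKM). The counted reads per mouse ranged from 19554931 to 42177775 at 3 months, from 9175551 to 11675280 in Fmn2-/- mice at 8 months, and from 16479658 to 41715344 in the other experiments. The 3 Fmn2+/+ libraries of 8 months held 43921030, 6818809 and 8381078 reads. Fmn2 lay between 77.2 and 109 CPM in Fmn2+/+ mice and between 21.6 and 28.2 in Fmn2-/- mice. In the cross it went against the labels, with 83.3 to 101.8 CPM in mice labelled FMN2-/-_APP and 18.9 to 23.4 in mice labelled FMN2 +/+ APP, so these groups are named by their labels throughout. Prox1, a granule neuron transcription factor, averaged 223 to 271 CPM in the dentate gyrus groups and 13.5 to 14.1 in both groups with PFC titles. The level of this dentate gyrus marker in the groups with PFC titles thus went against their tissue label. Some libraries stood apart. In the cross, FMN2 +/+ APP replicates 8 and 9 had a summed level of 4 astrocyte markers of 2025 and 3459 CPM, and FMN2-/-_APP replicate 7 had 321 CPM over 6 thalamic markers, against 36.1 as the lowest of the cross. Choroid plexus markers, 6 genes in sum, reached 9152 and 6007 CPM in FMN2 +/+ APP replicates 4 and 5, where the other 14 mice of the cross lay between 42 and 378, and 4132 CPM in Fmn2-/- replicate 4 of 3 months. In the cross all 6 were lower in mice labelled FMN2-/-_APP (median log2 difference -2.63, 6 at an unadjusted p under 0.05 and 0 past edgeR's test, 1 with DESeq2). The counts of replicates 2 and 3 of the 8-month-old Fmn2-/- mice were closer than those of any other pair, with a chi-square per degree of freedom of 1.58. The 9 remaining pairs of the group had 3.28 to 5.91. The 2 runs of a single mouse, at greater depth, gave 2.05 (FMN2-/-_APP replicate 7) and 1.66 (FMN2 +/+ APP replicate 7). Replicates 2 and 3 were kept as 2 mice as labelled, so each n = 5 of this group rests on that label. With their counts summed, 241 genes passed between genotypes at 8 months, against 589. Sequencing lane followed age and genotype in large part, since all Fmn2+/+ mice of 3 months were on lane 5, 4 of 5 Fmn2-/- mice of 3 months on lane 6, and all 8-month-old mice but 1 on lane 7.

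The start regions of 6 of the 9 genes were found among the RefSeq promoters of GRCm38.p6, with 7 windows in all because Dcx has a pair of them. Igfbpl1, Calb2 and Cd24a had no entry. The sequences of Sox11, Sox4 and Draxin are shown because they share the E-box CAGCTG, a hexamer of the kind that basic helix-loop-helix factors bind. It is not the NeuroD-type hexamer, which was searched for separately. The sequence of Dcx, the gene most used to count newborn neurons, is shown beside them. Each is the 250 bases before the annotated start on the minus strand, written 5′ to 3′ in the direction of transcription, with CAGCTG in capitals: Sox11 at chr12:27342719-27342968, Sox4 at chr13:28953700-28953949, Draxin at chr4:148130699-148130948 and Dcx at chrX:143933220-143933469.
Sox11: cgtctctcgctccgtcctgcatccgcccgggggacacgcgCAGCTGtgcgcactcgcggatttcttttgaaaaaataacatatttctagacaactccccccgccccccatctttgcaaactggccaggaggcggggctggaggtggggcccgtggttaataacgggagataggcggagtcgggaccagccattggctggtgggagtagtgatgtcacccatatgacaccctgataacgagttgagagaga
Sox4: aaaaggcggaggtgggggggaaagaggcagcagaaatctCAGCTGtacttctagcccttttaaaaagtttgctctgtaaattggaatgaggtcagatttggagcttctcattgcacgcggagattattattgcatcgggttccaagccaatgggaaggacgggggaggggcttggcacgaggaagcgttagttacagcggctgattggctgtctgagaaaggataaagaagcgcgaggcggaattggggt
Draxin: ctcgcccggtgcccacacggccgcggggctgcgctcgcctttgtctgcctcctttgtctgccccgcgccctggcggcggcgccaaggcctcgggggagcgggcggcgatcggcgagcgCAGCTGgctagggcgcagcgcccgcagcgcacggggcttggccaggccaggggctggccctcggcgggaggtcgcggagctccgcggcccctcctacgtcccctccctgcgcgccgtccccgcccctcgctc
Dcx: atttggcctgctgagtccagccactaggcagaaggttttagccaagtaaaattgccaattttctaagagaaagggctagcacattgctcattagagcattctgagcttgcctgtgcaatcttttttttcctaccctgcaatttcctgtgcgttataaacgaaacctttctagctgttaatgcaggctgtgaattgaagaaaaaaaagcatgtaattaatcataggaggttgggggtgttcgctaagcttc
In the windows of 300 bases, searched on both strands, CAGCTG began 210 bases before the start of Sox11, 211 before that of Sox4 and 132 before that of Draxin, so that 3 of 7 windows held it. Of all 32851 promoters, 16.3% did. The NeuroD-type hexamer CAGATG (or CATCTG) was in 0 of 7 windows and in 17.2% of all promoters, and the SOX core AACAAT (or ATTGTT) was in 0 of 7 and in 10.7%. These are matches of letters and not sites shown to be bound.

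Between 3 and 8 months the 9 genes did not move as a block. The level of Dcx was lower at 8 months in Fmn2+/+ mice and much the same at both ages in Fmn2-/- mice. Igfbpl1 and Draxin were lower at 8 months in both genotypes, Cd24a was lower in Fmn2-/- mice alone as far as the group values go, and Neurod1 and Sox11 hardly differed. In bulk RNA, fewer cells of a type and less RNA per cell cannot be told apart. As the genes were chosen with these values known, no test is attached to them.

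Eomes, the mark of intermediate progenitors, lies on chromosome 9 (mm10, 118478212 to 118486132, protein-coding, overlapped on the opposite strand by Gm33460). In Fmn2+/+ mice of 3 months it measured 0.0529, 0.216, 0.186, 0.355 and 0.303 CPM, and in Fmn2-/- mice of 3 months 0.524, 0.237, 0.293, 0.335 and 0.121. At 8 months the Fmn2+/+ mice had 0.236, 0.303 and 0.23 CPM and the Fmn2-/- mice 0.107, 0.109, 0, 0.17 and 0.285. All groups overlapped at this depth. The 5 Fmn2-/- mice of 8 months rested on 7 reads in total, and a count of 0 in replicate 3 allows up to 0.3 CPM, counting error alone considered. Eomes did not pass the filter on low counts in this experiment and has no fitted difference.

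Neurod1 (chromosome 2, 79452521 to 79456751) overlaps Cerkl on its own strand and Gm26755 on the other, and the libraries do not keep strand, so reads of these genes cannot be told apart. It measured 42.3, 47.3, 44.6, 51.5 and 48.2 CPM in Fmn2+/+ mice of 3 months and 39.6, 47.4 and 52.3 at 8 months. The Fmn2-/- mice had 48.4, 43.9, 41, 48.2 and 43.8 CPM at 3 months and 44.9, 38.7, 40.6, 49.3 and 50.3 at 8 months. All 18 mice thus lay between 38.7 and 52.3 CPM. The log2 difference of 8 minus 3 months was -0.02 ± 0.1 (SE) in Fmn2+/+ mice and -0.002 ± 0.0859 in Fmn2-/- mice, the smallest standard errors of the 8 genes that could be fitted.

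Sox11 (chromosome 12, 27334264 to 27342574) measured 16.6, 23.5, 21.3, 28.3 and 24.9 CPM in Fmn2+/+ mice of 3 months and 21.4, 24.4 and 22 at 8 months. Sox11 in the Fmn2-/- mice was 28.9, 29.7, 21.5, 23.1 and 26.9 CPM at 3 months and 21.5, 28.7, 24.3, 27.2 and 21.7 at 8 months. The groups overlapped throughout, and the log2 age difference was -0.03 ± 0.146 (SE) in Fmn2+/+ and -0.07 ± 0.124 in Fmn2-/- mice. Its close relative Sox4 (chromosome 13, 28948919 to 28953713, opposite Gm26735) was far less abundant in these counts. Sox4 measured 2.91, 2.92, 4.1, 3.55 and 2.59 CPM in Fmn2+/+ mice of 3 months, against 2.29, 3.33 and 1.27 at 8 months. The Fmn2-/- mice had 2.4, 2.96, 2.68, 3.07 and 3.22 CPM at 3 months and 2.14, 1.85, 2.7, 3.32 and 2.75 at 8 months. The 8-month-old Fmn2+/+ mice spread from the lowest Sox4 value of all 18 mice to the third highest, and the log2 age difference was -0.51 ± 0.237 (SE) in Fmn2+/+ and -0.15 ± 0.2 in Fmn2-/- mice.

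Dcx lies on the X chromosome (143855842 to 143933311). It measured 22.1, 18.9, 30.1, 18.1 and 21.5 CPM in Fmn2+/+ mice of 3 months and 13, 17.6 and 15.4 at 8 months, and these groups did not overlap. The Fmn2-/- mice had 16, 18.4, 20.5, 20.7 and 18.3 CPM at 3 months and 20.9, 17.4, 17.1, 21.1 and 18.6 at 8 months, and these ranges covered each other almost fully. The log2 age difference was -0.56 ± 0.15 (SE) in Fmn2+/+ mice and 0.03 ± 0.125 in Fmn2-/- mice. The difference between the age differences was 0.59 ± 0.194 (SE). Between genotypes, Dcx was at -0.24 ± 0.119 (Fmn2-/- minus Fmn2+/+, log2) at 3 months and 0.35 ± 0.154 at 8 months, with overlapping groups at both ages. On lane 7 alone, the Fmn2-/- mice of 8 months lay between 17.1 and 21.1 CPM and the 2 Fmn2+/+ mice at 15.4 and 17.6. With lane as a covariate the log2 age difference was -1.06 ± 0.285 in Fmn2+/+ and -0.38 ± 0.264 in Fmn2-/- mice, so the near-equal Dcx levels of Fmn2-/- mice at the 2 ages depend on how lane is treated, and the part of lane was not tested further. Dcx averaged 60.2 and 60.1 CPM with PFC titles, so 7 cortex markers were set beside it. All 7 were lower at 8 months in Fmn2+/+ mice (median log2 difference -0.401, 5 at an unadjusted edgeR p under 0.05, 0 past the test). In Fmn2-/- mice 5 were lower and 2 higher (-0.145, 2 and 0). Their sum was 355 to 558 CPM at 3 and 338 to 349 at 8 months in Fmn2+/+ mice. In Fmn2-/- mice it was 363 to 431 and 348 to 400. The part of cortex tissue in the Dcx values was not tested.

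Igfbpl1 (chromosome 4, 45809468 to 45826923) was low in all 18 mice. It measured 1.06, 0.973, 0.746, 1.77 and 0.975 CPM in Fmn2+/+ mice of 3 months and 0.495, 0.758 and 0.69 at 8 months. The knockouts had 1.57, 1.5, 1.28, 1.17 and 0.993 CPM at 3 months and 0.534, 0.763, 0.3, 0.256 and 0.569 at 8 months. All Fmn2-/- mice of 8 months lay below all those of 3 months, and the Fmn2+/+ groups overlapped by a narrow margin. The log2 age difference was -1.43 ± 0.307 (SE) in Fmn2-/- mice, the largest of the 8 genes, and -0.88 ± 0.345 in Fmn2+/+ mice, with a difference between them of -0.55 ± 0.472. The Fmn2-/- mice of 8 months rested on 3 to 7 reads each. Without Fmn2+/+ replicate 1 of 8 months, the deepest library, the age difference in Fmn2+/+ mice was -0.59 ± 0.444. With lane as a covariate it was -0.78 ± 0.599 in Fmn2+/+ mice, within 2 standard errors of 0, and -1.90 ± 0.687 in Fmn2-/- mice.

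Draxin (chromosome 4, 148098437 to 148130698, opposite Mad2l2) followed the same order. It measured 1.69, 1.24, 1.03, 1.86 and 1.24 CPM in Fmn2+/+ mice of 3 months and 1.04, 1.06 and 0.92 at 8 months. Values in the knockouts were 1.69, 1.7, 1.94, 1.23 and 1.33 CPM at 3 months and 0.534, 0.763, 0.701, 1.45 and 1.04 at 8 months. One Fmn2-/- mouse of 8 months reached into the 3-month range, so that the groups overlapped in both genotypes. The log2 age difference was -0.46 ± 0.286 (SE) in Fmn2+/+ and -0.77 ± 0.25 in Fmn2-/- mice. With lane as a covariate it was -0.29 ± 0.539 and -0.675 ± 0.581, both within 2 standard errors of 0.

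Cd24a (chromosome 10, 43578284 to 43584265) measured 4.39, 3.46, 4.72, 8.07 and 6.32 CPM in Fmn2+/+ mice of 3 months and 6.81, 7.58 and 5.06 at 8 months. The Fmn2-/- mice had 4.13, 4.74, 5.75, 6.06 and 3.83 CPM at 3 months and 3.63, 1.85, 2.9, 2.98 and 1.71 at 8 months. The 8-month-old Fmn2-/- mice were the lowest group, below all Fmn2-/- mice of 3 months and below all Fmn2+/+ mice of 8 months. The log2 age difference was -0.90 ± 0.24 (SE) in Fmn2-/- mice and 0.26 ± 0.25 in Fmn2+/+ mice, and the genotype difference was -0.15 ± 0.207 at 3 months and -1.31 ± 0.275 at 8 months. On lane 7 alone the 5 Fmn2-/- mice of 8 months lay between 1.71 and 3.63 CPM and the 2 Fmn2+/+ mice at 5.06 and 7.58. With lane as a covariate the genotype difference at 8 months was -1.26 ± 0.341. The age difference in Fmn2-/- mice was then -0.835 ± 0.504, within 2 standard errors of 0, and that in Fmn2+/+ mice 0.03 ± 0.518.

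Since Cd24a is also a gene of ependymal cells, 5 markers of those cells, Foxj1, Ccdc153, Tmem212, Rarres2 and Dynlrb2, were set beside it. Their summed level ranged from 4.18 to 7.41 CPM in Fmn2-/- mice of 8 months, from 7.48 to 15.8 in Fmn2+/+ mice of 8 months, from 5.92 to 14.8 in Fmn2-/- mice of 3 months and from 4.49 to 17.6 in Fmn2+/+ mice of 3 months. At 8 months the sums did not overlap between genotypes, as for Cd24a. All 5 markers were lower in Fmn2-/- than in Fmn2+/+ mice at 8 months (median log2 difference -1.41) and lower at 8 than at 3 months in Fmn2-/- mice (-0.845), and all 5 were higher at 8 months in Fmn2+/+ mice (0.613). In each of these comparisons 0 of 5 passed edgeR's quasi-likelihood test or DESeq2, and at an unadjusted p under 0.05 there were 0, 1 and 0. None of the 5 was at 0 in all mice of a group of this experiment. The part of ependymal cells in the Cd24a values was not tested.

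**Figure D1:**
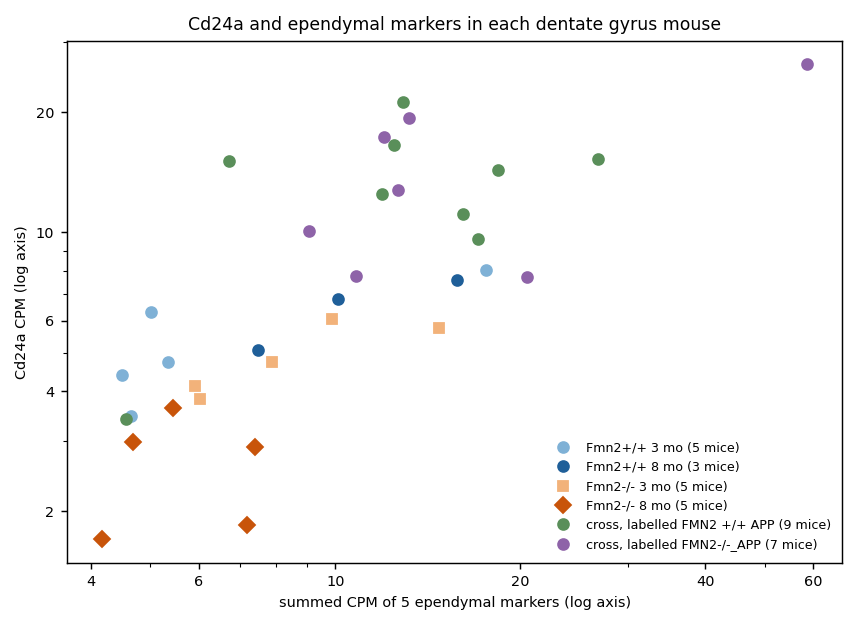
Cd24a (CPM, log axis) against the summed CPM of 5 ependymal markers (log axis), 1 point per mouse, for the 4 groups of the age experiment and the 2 groups of the cross. The 5 Fmn2-/- mice of 8 months (dark orange diamonds) lie at 3.63 CPM of Cd24a or below and at a marker sum of 7.41 or below, and FMN2-/-_APP replicate 7 lies at the far end of both axes, at 26.3 and 58.6.

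Calb2 (chromosome 8, 110137502 to 110168210) had the highest counts of the set and a wide spread in 3 of the 4 groups. It measured 84.6, 135, 120, 69.4 and 107.2 CPM in Fmn2+/+ mice of 3 months and 133, 137 and 133 at 8 months. The knockouts had 125, 93.5, 175, 130 and 126 CPM at 3 months and 73.4, 124, 121, 157 and 188 at 8 months. The 3 Fmn2+/+ mice of 8 months were nearly alike, while the 5 Fmn2-/- mice of that age held both the second lowest and the highest value of the 18. The log2 age difference was 0.39 ± 0.234 (SE) in Fmn2+/+ and 0.04 ± 0.203 in Fmn2-/- mice. Mossy cells and interneurons also contain calretinin. The summed level of 5 mossy cell markers ranged from 58.9 to 72.9 CPM and that of 7 interneuron markers from 738 to 986 CPM over the 18 mice, and the part of these cells in the Calb2 values was not tested.

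**Figure D2:**
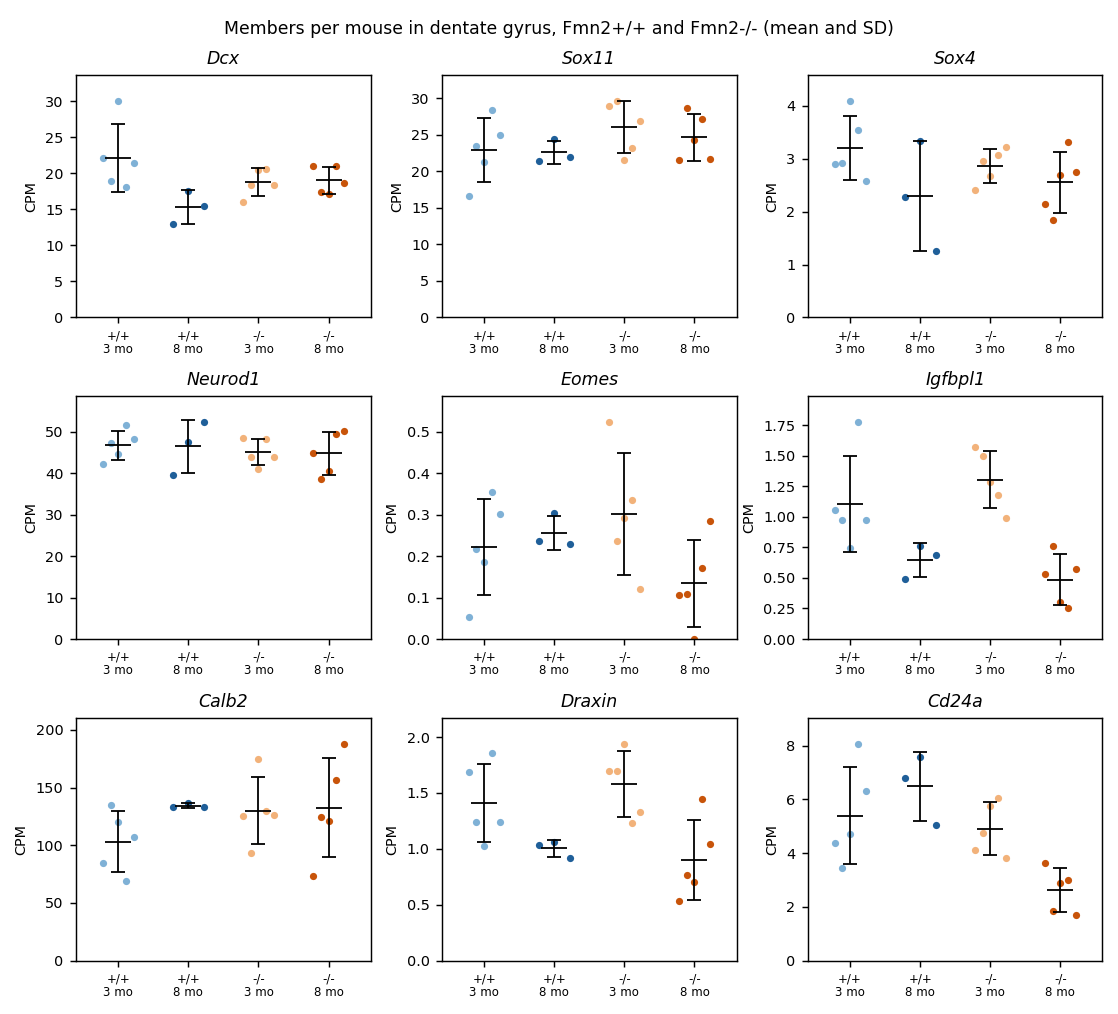
CPM of each of the 9 genes in every mouse of the age experiment, with the mean (long bar) and SD (short bars) of each group, on axes that start at 0. Dcx is lower in the 3 Fmn2+/+ mice of 8 months (13 to 17.6 CPM) than in all 5 of 3 months, Cd24a is lowest in Fmn2-/- mice of 8 months (1.71 to 3.63 CPM), and Neurod1 stays between 38.7 and 52.3 CPM in all mice.

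Set side by side, 6 of the 8 fitted genes had a lower level at 8 than at 3 months in Fmn2+/+ mice and 2 a higher one, with a median log2 difference of -0.246, against 0.0148 over all 17046 genes tested. In Fmn2-/- mice 6 of 8 were lower as well, with a median of -0.112, against -0.00614 over all genes. Groups did not overlap in 1 of 9 genes (Dcx, lower) with age in Fmn2+/+ mice, where 16.7% of all genes did not overlap in either direction, and in 2 of 9 (Igfbpl1 and Cd24a, lower) with age in Fmn2-/- mice, where 9.22% did not. Between genotypes they did not overlap in 0 of 9 genes at 3 months (2.68% of all genes) and in 1 of 9 (Cd24a, lower in Fmn2-/- mice) at 8 months (10.8%). Nothing is read from these counts, as the genes were chosen on these mice. The genotype differences of Dcx lay beyond 2 standard errors of 0 at both ages, with opposite signs (-0.24 ± 0.119 at 3 months, 0.35 ± 0.154 at 8 months). Apart from these and that of Cd24a at 8 months, the genotype differences lay within 2 standard errors of 0. At 3 months Sox11 was at 0.18 ± 0.12, Calb2 at 0.33 ± 0.202 and Igfbpl1 at 0.24 ± 0.239 on the log2 scale (Fmn2-/- minus Fmn2+/+), and at 8 months Sox4 was at 0.19 ± 0.251 and Igfbpl1 at -0.31 ± 0.407.

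**Figure D3:**
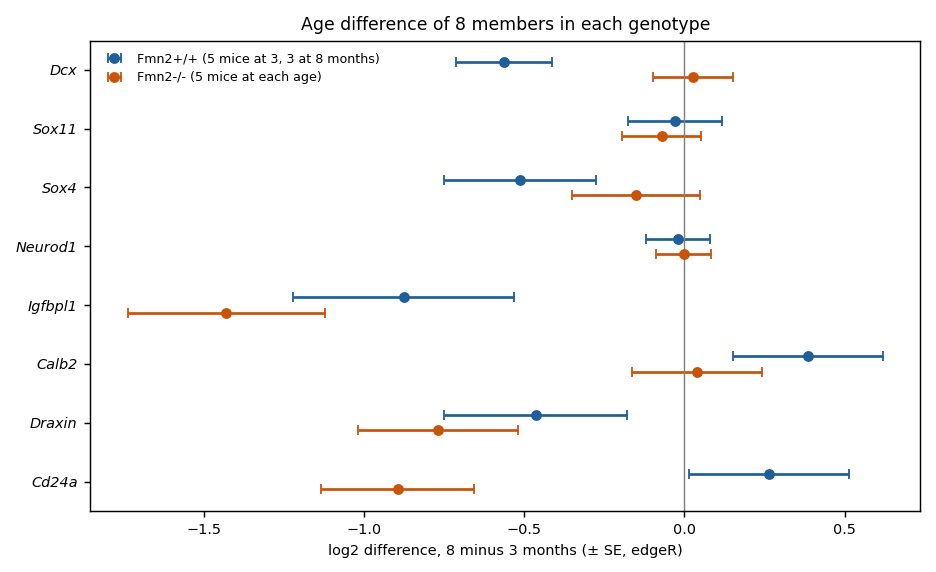
Log2 difference of 8 minus 3 months (points) with its SE (bars) for 8 genes, in Fmn2+/+ mice (blue) and Fmn2-/- mice (orange). The genotypes lie apart for Dcx (-0.56 and 0.03) and Cd24a (0.26 and -0.90), lie on the same side of 0 for Igfbpl1 and Draxin, and lie together near 0 for Neurod1 and Sox11, and no test is attached because the genes were chosen on these values.

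The wider neurogenesis genes were 10 of stem cells, 12 of the cell cycle, 8 of intermediate progenitors, 20 of immature neurons and 20 of niche signals. Of the 70, 64 passed the filter on low counts in the age experiment. They were tested in edgeR by quasi-likelihood, with p-values adjusted over all genes (Benjamini-Hochberg) and a log2 difference of at least 0.25. Of the 10 stem cell genes, 7 were higher at 8 months in Fmn2+/+ mice (median log2 difference 0.188) and 5 in Fmn2-/- mice (0.044). Genes of the immature neuron list were mostly lower at 8 months, with medians of -0.131 and -0.206. In Fmn2+/+ mice 3 of 64 passed (1 up, 2 down) and in Fmn2-/- mice 6 of 64 (2 up, 4 down), while 9.21% and 6.44% of all genes passed in these comparisons, so that neither share stood above the background.

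Hopx, a homeobox gene of quiescent stem cells that astrocytes also express, rose from 45.4 ± 1.78 CPM (SD, n = 5) to 60.9 ± 5.26 (n = 3) in Fmn2+/+ mice (log2 0.43, SE 0.0783, edgeR adjusted p = 0.00233). In Fmn2-/- mice it rose from 54.5 ± 5.59 to 74.1 ± 4.42 CPM (n = 5 each, log2 0.45, SE 0.0672, adjusted p = 0.000699, edgeR). All 8-month-old mice of a genotype lay above all 3-month-old ones. The summed level of 4 astrocyte markers was 801 to 961 and 854 to 1040 CPM in Fmn2+/+ mice of 3 and 8 months, and 905 to 1110 and 1090 to 1240 in Fmn2-/- mice, and its part in the Hopx values was not tested. Fabp7, a fatty acid binding protein of radial glia and astrocytes, rose in Fmn2-/- mice from 27.5 ± 2.49 to 43.8 ± 11 CPM (log2 0.68, SE 0.191, edgeR adjusted p = 0.0317). In Fmn2+/+ mice, where it did not pass, it went from 32.6 ± 9.59 to 45.4 ± 11.6 CPM.

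Of the immature neuron genes, 15 of 20 were lower at 8 months in Fmn2+/+ mice (median log2 difference -0.131) and 17 of 20 in Fmn2-/- mice (-0.206), against 0.0148 and -0.00614 over all genes. In Fmn2+/+ mice the ones that passed were Klf7, a transcription factor of axon growth, which fell from 27.2 ± 2.84 to 14.2 ± 5.31 CPM (log2 -0.93, SE 0.179, edgeR adjusted p = 0.00325), and Dpysl3, a cytoskeletal protein of growth cones (65.3 ± 11.4 to 47.1 ± 2.52 CPM, log2 -0.47, SE 0.143, adjusted p = 0.0416). Neither passed in Fmn2-/- mice, where Klf7 went from 21.9 to 21.1 CPM and Dpysl3 from 64.7 to 55.1. In Fmn2-/- mice Tubb3, the neuronal tubulin, fell from 206 ± 25.3 to 161 ± 12.3 CPM (log2 -0.35, SE 0.0831, edgeR adjusted p = 0.012). Neurod2, a relative of Neurod1, fell from 186 ± 24.6 to 139 ± 19.9 CPM (log2 -0.42, SE 0.103, adjusted p = 0.0159, edgeR). Neither passed in Fmn2+/+ mice, where Tubb3 went from 196.5 to 183.9 CPM and Neurod2 from 169.5 to 183.5. Nnat, a small membrane protein of young neurons that ependymal cells also express, fell from 180 ± 55.5 to 102.2 ± 27.6 CPM (log2 -0.81, SE 0.238, adjusted p = 0.0393, edgeR), and Fxyd7, a regulator of the sodium pump, passed as well (log2 -0.44, SE 0.129, adjusted p = 0.0397). In Fmn2+/+ mice, where neither passed, Nnat went from 204 to 199.3 CPM and Fxyd7 from 48.4 to 51.7. Tubb3, Neurod2 and Fxyd7 are not confined to immature neurons. With PFC titles they stood at 330 and 332, 75.1 and 79.1, and 77.9 and 79.8 CPM (APP and wild type). The part of mature neurons in these age differences was not tested.

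These age calls have 3 limits. With lane as a covariate none of them passed, although the direction was the same for each. In Fmn2+/+ mice the log2 differences were then -1.21 for Klf7, -1.08 for Dpysl3 and 0.34 for Hopx (edgeR adjusted p = 0.0647, 0.0535 and 0.21), and in Fmn2-/- mice they ranged from -0.44 for Nnat and -0.43 for Fxyd7 to -0.10 for Neurod2, with 0.46 for Fabp7, and an adjusted p of 1. With a correction for GC content and length, Hopx passed in both genotypes and Klf7 in Fmn2+/+ mice, while Dpysl3 (adjusted p = 0.0748, edgeR) and the other 5 genes of Fmn2-/- mice (0.0919 to 0.184) did not. When single mice were left out, Hopx and Klf7 kept their age calls and Tubb3 was called with each mouse left out, whereas Dpysl3 was lost in 5 of 18 fits (without Fmn2+/+ replicates 1, 2 or 3 of 3 months, or 1 or 3 of 8 months, adjusted p up to 0.168), Neurod2 in 1 (without Fmn2-/- replicate 4 of 8 months, 0.0504), Fabp7 in 5 (up to 0.105), Nnat in 7 (up to 0.113) and Fxyd7 in 8 (up to 0.117).

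Between genotypes, 0 of 64 genes passed at 3 months (9 at an unadjusted p under 0.05, and 1 with DESeq2), where 0.194% of all genes passed edgeR's test. At 8 months 1 of 64 passed, against 3.46% of all genes. This was Nnat, at 102.2 ± 27.6 CPM in Fmn2-/- and 199 ± 46.5 in Fmn2+/+ mice (log2 -0.97, SE 0.269, edgeR adjusted p = 0.04998). It lies at the threshold, and the call was lost in 14 of 18 fits that left out 1 mouse, with the adjusted p reaching 0.322 without Fmn2+/+ replicate 1 of 8 months. In the test of the difference between the age differences 1 of 64 passed, against 3.73% of all genes. Klf7, lower at 8 months in Fmn2+/+ mice, stood at 21.9 ± 3.92 and 21.1 ± 2.19 CPM in Fmn2-/- mice of 3 and 8 months (log2 difference of the age differences 0.88, SE 0.23, edgeR adjusted p = 0.0404). That call was lost in 12 of 18 such fits, with the adjusted p up to 0.129 without Fmn2+/+ replicate 1 of 8 months. In none of the 5 comparisons did a gene of the cell cycle, of intermediate progenitors or of the niche signals pass edgeR's test. At an unadjusted p under 0.05, each of the first 2 lists had at most 1 gene and the third at most 4 in any comparison, and DESeq2 called at most 1 of any of these lists.

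In the cross, which the choice of the 9 genes rested on less than on the age experiment, the genes were tested. Its values were also known when they were chosen, so their p-values here are not independent of the choice. Of the 9, 1 passed edgeR's test at an adjusted p under 0.05 and a log2 difference of at least 0.5, and 0.774% of all 16656 genes did. Nothing is read from this count. The gene that passed was Eomes. Among the mice labelled FMN2-/-_APP its lowest, median and highest values were 0.404, 0.806 and 1.35 CPM (192 reads over 7 mice), and among those labelled FMN2 +/+ APP they were 0.131, 0.365 and 0.519 CPM (85 reads over 9 mice). The groups overlapped, as 2 of the 7 mice labelled FMN2-/-_APP lay within the range of the others. The means were 0.825 ± 0.342 (SD, n = 7) and 0.356 ± 0.123 CPM (SD, n = 9), and the log2 difference was 1.23 ± 0.287 (SE, edgeR adjusted p = 0.0386). The higher Eomes level was thus in the mice with high Fmn2. Eomes passed the filter on low counts through the group where it was high, since all 7 mice labelled FMN2-/-_APP but 4 of 9 labelled FMN2 +/+ APP reached its minimum of 10 reads at the median depth (0.396 CPM). On lane 5 the 3 mice labelled FMN2-/-_APP lay between 0.404 and 0.693 CPM and the 3 others between 0.131 and 0.519, and on lane 6 between 0.806 and 1.17 against 0.219 to 0.406.

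The Eomes call was not firm. Without the filter it was lost (log2 1.23, edgeR adjusted p = 0.0693). With lane as a covariate the log2 difference was 1.40 (edgeR adjusted p = 0.0219), and with DESeq2 1.24 (adjusted p = 0.0125). It was lost without the 3 libraries that stood apart in astrocyte or thalamic markers, FMN2-/-_APP replicate 7 and FMN2 +/+ APP replicates 8 and 9 (log2 1.09, edgeR adjusted p = 0.0777). It was lost as well without FMN2 +/+ APP replicates 4 and 5, which were high in choroid plexus markers (log2 1.17, edgeR adjusted p = 0.113), and without all 5 (1.04, adjusted p = 0.209). These 3 settings were chosen after seeing the data. The call was also lost in 11 of 16 fits that left out 1 mouse, namely without any of FMN2-/-_APP replicates 3 to 7 or FMN2 +/+ APP replicates 1 to 6 (log2 1.046 to 1.348 over all 16, adjusted p up to 0.0816). The direction was the same in all of these. Cajal-Retzius cells also express Eomes. Of their 5 markers 4 were tested, of which 2 were higher and 2 lower in mice labelled FMN2-/-_APP. Of the 4, 1 passed edgeR's test, as lower, and DESeq2 called 2. The summed level, mostly Ndnf, ranged from 28.5 to 34.8 CPM in mice labelled FMN2-/-_APP and from 39.1 to 52.2 in mice labelled FMN2 +/+ APP. Ndnf itself, a gene of these cells and of some interneurons, lay between 12.5 and 27.6 CPM and between 31.8 and 43 CPM. Lhx5, a defining gene of the same cells, ranged from 0.0961 to 3.75 CPM (mean 0.762, SD 1.32) and from 0.0739 to 0.501 CPM (mean 0.276, SD 0.143). The part of these cells in the Eomes values was not tested.

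The other 8 genes did not pass in the cross. Draxin came closest, with a lowest, median and highest value of 1.63, 2.8 and 4.07 CPM in mice labelled FMN2-/-_APP and of 1.45, 2.1 and 2.9 in mice labelled FMN2 +/+ APP (log2 0.41, 95% interval 0.05 to 0.78, unadjusted p = 0.0402, edgeR adjusted p = 0.274). Its groups overlapped broadly. Igfbpl1 ranged from 2.52 to 5.26 CPM (median 4.23) and from 2.13 to 7.57 (median 2.64), and the high end of the second group was 1 mouse, FMN2 +/+ APP replicate 9 (log2 difference 0.29 ± 0.239, edgeR adjusted p = 0.592). Dcx ranged from 13.9 to 27.2 CPM (median 20.1) and from 16.7 to 30.6 (median 21.1), with log2 -0.21 ± 0.153 and an edgeR adjusted p of 0.528. The 2 highest Dcx values, both 30.6 CPM, belonged to FMN2 +/+ APP replicates 8 and 9. The same mice had 70.8 and 68.6 CPM of Sox11, where the other 14 mice lay at 38.9 or below. The Sox11 difference was -0.13 (95% interval -0.56 to 0.30, edgeR adjusted p = 0.825), and without the same 3 libraries the sign changed, to 0.23 (adjusted p = 0.223). Sox4 was at 3.22 to 4.78 CPM (median 4.23) and 3 to 5.29 (median 4.14), and its log2 difference of 0.065 had an interval of -0.19 to 0.32 (edgeR adjusted p = 0.854).

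Neurod1 was even between the groups of the cross, with a median of 46.3 CPM in mice labelled FMN2-/-_APP and 50.5 in mice labelled FMN2 +/+ APP (log2 -0.12, 95% interval -0.31 to 0.08, edgeR adjusted p = 0.598). The lowest value, 30.7 CPM, came from FMN2-/-_APP replicate 7, whose other genes were often high. That mouse had the highest Cd24a value, 26.3 CPM, and the highest ependymal sum, 58.6 CPM. FMN2 +/+ APP replicate 8 lay at the other end, with 3.41 CPM of Cd24a, an ependymal sum of 4.56 and 13.8 CPM of Calb2. Calb2 in the other mice of that group lay between 144 and 243 CPM. In replicate 8 the sum of 7 interneuron markers was 442 CPM and that of 6 markers of olfactory bulb neuroblasts 12.7 CPM, the lowest of the cross for both. The group differences of both genes had wide intervals, from -0.46 to 0.72 for Cd24a (log2 0.13, edgeR adjusted p = 0.874) and from -0.70 to 0.66 for Calb2 (log2 -0.02, edgeR adjusted p = 0.987). Groups did not overlap in 0 of the 9 genes, and in 0.546% of all genes they did not.

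**Figure D4:**
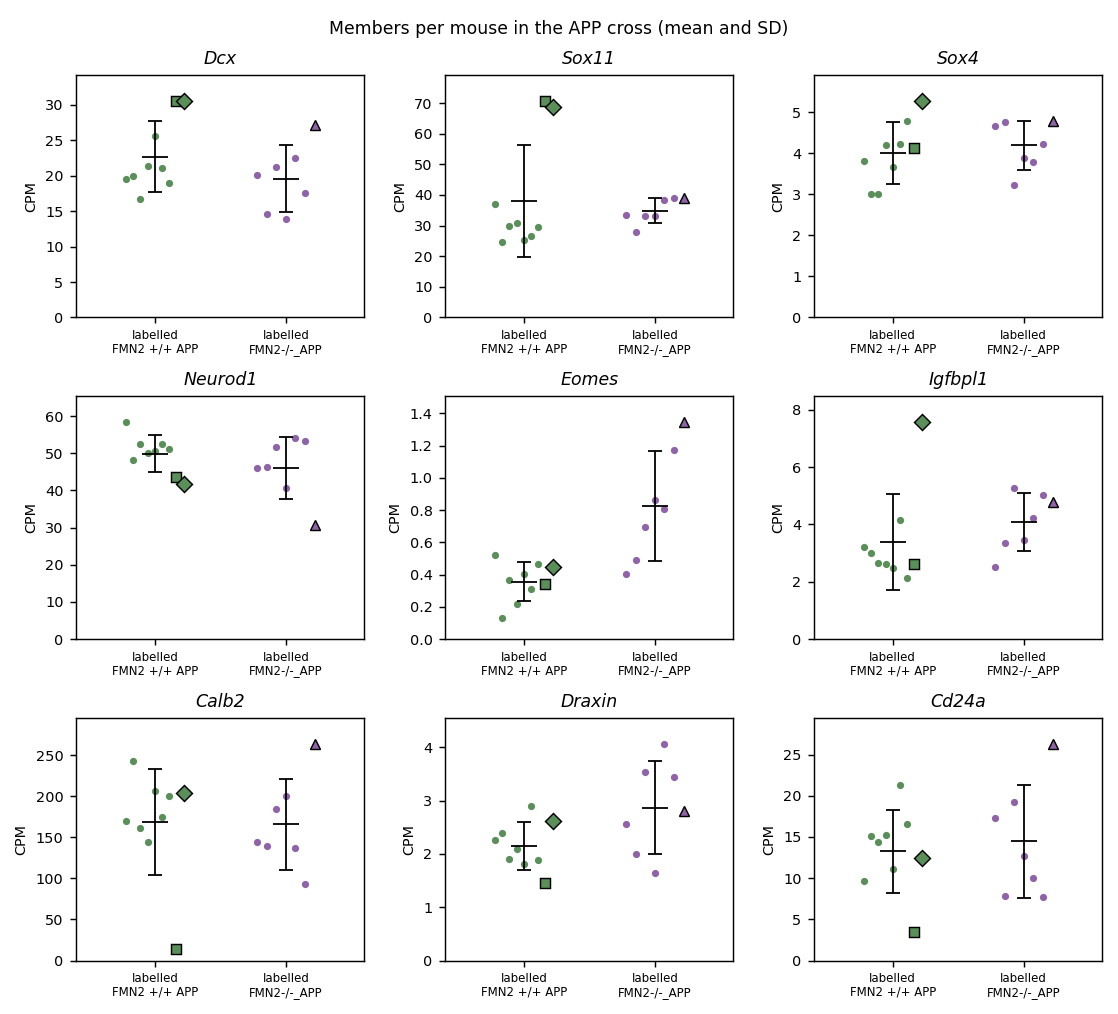
CPM of each of the 9 genes in every mouse of the APP cross, with the mean (long bar) and SD (short bars) per label, on axes that start at 0. The square and the diamond are FMN2 +/+ APP replicates 8 and 9, at 70.8 and 68.6 CPM of Sox11, and the triangle is FMN2-/-_APP replicate 7, the highest in Eomes (1.35 CPM) and Cd24a (26.3 CPM).

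Of the wider genes, 64 were tested in the cross and 1 passed, against 0.774% of all genes. Dpysl5, a collapsin response mediator protein that acts in the growing axons of newborn neurons, was at 45.1 ± 11.7 CPM (SD, n = 7) in mice labelled FMN2-/-_APP and 29.1 ± 4.04 (SD, n = 9) in mice labelled FMN2 +/+ APP (log2 0.64, SE 0.131, edgeR adjusted p = 0.0227). Its call was kept in all 16 fits that left out 1 mouse, with adjusted p-values up to 0.0486, but was lost without FMN2 +/+ APP replicates 4 and 5 (log2 0.61, edgeR adjusted p = 0.0762) and without all 5 libraries that stood apart (0.50, adjusted p = 0.0974). Other markers moved beside it. Of 7 markers of oligodendrocyte precursors 5 were higher in mice labelled FMN2-/-_APP and 1 passed (summed level 173 to 225 against 124 to 188 CPM), and all 6 of olfactory bulb neuroblasts were higher with 0 past the test by edgeR or DESeq2 (1 at an unadjusted p under 0.05). Their part in the Dpysl5 value was not tested. With PFC titles Dpysl5 itself stood at 46.5 and 43.3 CPM (APP and wild type), so its level is not particular to the dentate gyrus. The lists of stem cells, the cell cycle, intermediate progenitors and niche signals had 0 genes past edgeR's test and 0 with DESeq2, and 2, 1, 1 and 6 at an unadjusted p under 0.05.

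In the groups with PFC titles the 9 genes stood at another level, and the mice labelled APP and wild type could hardly be told apart by them. Of 6 genes tested, 0 passed edgeR's test, 0 had an unadjusted p under 0.05 and 0 were called by DESeq2, against 2.34% of all 16733 genes with edgeR. The values of these groups were also known when the genes were chosen, so the p-values are not independent of the choice. Dcx had a lowest, median and highest value of 50.2, 57.8 and 70.7 CPM in mice labelled APP and of 47.6, 62.6 and 70.5 in wild type. Its log2 difference was 0.01 with an interval of -0.17 to 0.20 (edgeR adjusted p = 0.976). The intervals of Sox11, from -0.13 to 0.18, of Sox4, from -0.29 to 0.17, and of Neurod1, from -0.17 to 0.19, were narrow as well. Calb2 had the largest difference, 0.20 ± 0.117 (edgeR adjusted p = 0.479), and Cd24a stood at 0.12 ± 0.122 (adjusted p = 0.752, edgeR). Eomes, Igfbpl1 and Draxin did not pass the filter on low counts, with 4 and 8 reads, 8 and 11 reads, and 32 and 29 reads in the 6 mice labelled APP and the 6 wild-type mice. All mice labelled APP were sequenced on lane 7 and all wild-type mice on lane 5, so lane and genotype cannot be told apart here. Of 63 wider genes 1 passed, Mki67, which encodes the proliferation antigen Ki-67, at 2.04 ± 0.297 CPM (SD, n = 6) in mice labelled APP and 1.22 ± 0.321 (SD, n = 6) in wild type (log2 0.78, SE 0.173, edgeR adjusted p = 0.0124). All 6 microglia markers also passed, higher in mice labelled APP (median log2 difference 1.36, summed level 345 to 446 against 192 to 216 CPM), as did 1 of 4 astrocyte markers, and their part in the Mki67 value was not tested.

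Over all 8 groups, the levels fell into a pattern by tissue and by experiment. These comparisons between experiments carry no test. Dcx was highest with PFC titles, at 60.2 ± 7.94 and 60.1 ± 8.38 CPM (SD, n = 6 each), and no mouse of another group reached that range, the next mean being 22.7. The dentate gyrus groups followed each other with overlapping ranges down to 15.3 ± 2.31 CPM in Fmn2+/+ mice of 8 months. Neurod1, Sox11 and Calb2 had the opposite order, with every dentate gyrus mean above the PFC-title means and a gap between the ranges of neighbouring groups at that step, from 44.8 to 8.73 CPM for Neurod1, from 22.6 to 12 for Sox11 and from 103.2 to 13.1 for Calb2. Igfbpl1 separated the experiments, at 4.09 ± 1.01 and 3.38 ± 1.68 CPM in the cross, against 1.3 CPM in the next group (Fmn2-/-, 3 months), and 0.0447 to 0.103 CPM with PFC titles. Draxin and Cd24a were also highest in the cross, at 2.87 and 2.15 CPM and at 14.5 and 13.2 CPM, with ranges that overlapped those of the next group. Among libraries with lane number 5, Igfbpl1 was also higher in the cross. It lay at 2.52 to 5.26 CPM in the mice labelled FMN2-/-_APP and at 0.746 to 1.77 in the Fmn2+/+ mice of 3 months. Only lane numbers are known, so the same number in different experiments need not mean a shared lane. Sox4 followed the experiments too, from 5.16 and 4.91 CPM with PFC titles over 4.19 and 4.02 in the cross to between 3.21 and 2.3 in the age experiment, and the ranges of neighbouring groups overlapped.

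Per kilobase of exon, which allows genes to be compared, Calb2 was the most abundant of the 9 in the dentate gyrus, with group means of 59.2 to 96.8 RPKM. Neurod1 followed at 16.4 to 18.3 RPKM, and Eomes was the least abundant at 0.0323 to 0.199 RPKM. Calb2 and Neurod1, both expressed in postmitotic neurons, thus lay far above the progenitor gene Eomes on this scale.

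**Figure D5:**
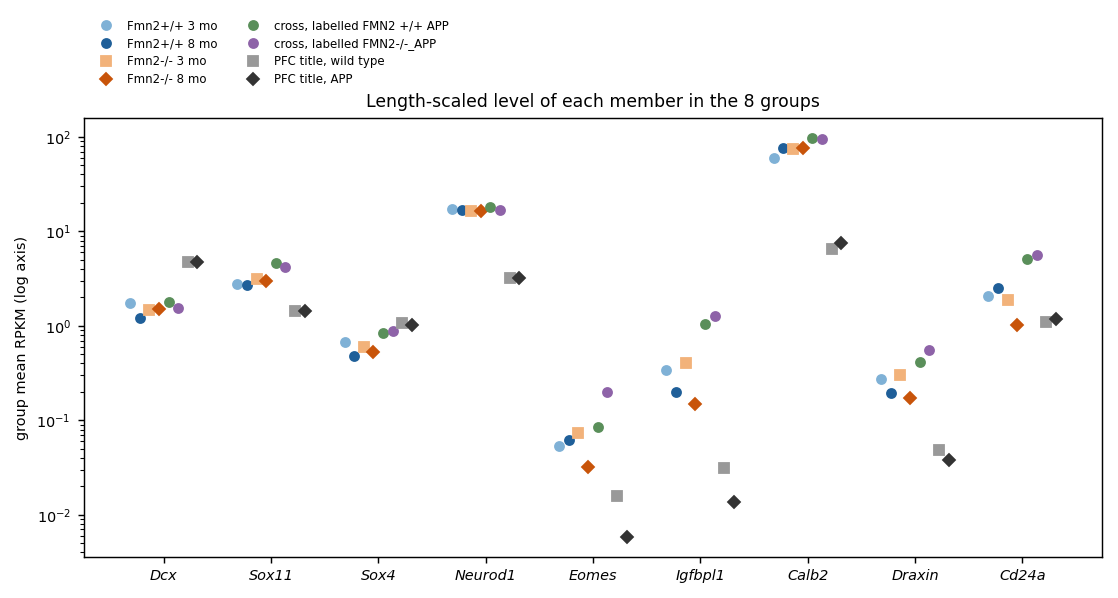
Mean RPKM (scaled for exon length and depth, log axis) of each of the 9 genes in the 8 groups. Calb2 and Neurod1 are the highest genes in the 6 dentate gyrus groups, Eomes is the lowest, and Dcx is the gene for which both groups with PFC titles (grey and black) lie highest by a wide gap, at 4.76 and 4.75 RPKM.

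How far the 9 genes varied together from mouse to mouse is given as a description, over values centred within each group, which share library depth and tissue composition. In the 16 mice of the cross, Igfbpl1 had a Pearson r of 0.665 with the mean of the other 8 genes and Draxin one of 0.577, whereas Neurod1 had -0.343. Leaving out the 2 most distant mice turned the value of Neurod1 to 0.722 and left those of Igfbpl1 and Draxin at 0.481 and 0.676. In the 18 mice of the age experiment no gene exceeded 0.334 (Neurod1), and the lowest was -0.173 (Igfbpl1). The 10 other genes most like the mean of the set in the cross were Gpr17 (r = 0.864, Spearman's rho = 0.806), Dnajb4 (0.847), Erp44 (0.846), Ubqln1 (0.839), Lpcat1 (0.813), Srpk2 (0.802), P4ha3 (0.799), Gldn (0.791), Snap91 (0.784) and Megf11 (0.78). In the 18 mice of the age experiment the same genes had an r between -0.334 (Lpcat1) and 0.402 (Dnajb4), and that of Gpr17, a receptor of maturing oligodendrocyte precursors, was 0.068.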

How the data were processed

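RNA of the dentate gyrus, and of 12 mice with prefrontal cortex titles, was sequenced from TruSeq libraries without strand. The authors used STAR for alignment to mm10 and HTSeq for counting per gene, and the deposited values are whole-number counts for 48709 genes, of which 48349 have an exon length in GENCODE M21. Reads shared by near-identical or overlapping genes can be lost or misassigned in such counting. The 9 genes and the wider lists were chosen with earlier results of these data known. The 2 runs of each mouse that was sequenced in 2 lanes were summed. Counts were tested with edgeR 4.0.16 (R 4.3.3; TMM, filterByExpr, glmQLFit, glmQLFTest, Benjamini-Hochberg over all genes tested), in 1 fit over the 18 mice of the age experiment and 1 fit for each of the others. A gene passed at an adjusted p under 0.05 and an absolute log2 difference of at least 0.25, or 0.5 in the cross and with PFC titles, the study's thresholds. CPM and RPKM are TMM-scaled over all mice. Intervals are 95% and a floor is 3 counts, both for counting or model error only.

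The depth of 6818809 to 43921030 counted reads per mouse sets the precision of low genes, above all at 8 months. The labels say nothing of separate litters or days, so p-values measure the spread between these mice. Alternatives were DESeq2 1.42.0, RLE scaling, no filter on low counts, correction for GC content and length, lane as a covariate, the replicate number as a block, only the 2 groups compared, summing Fmn2-/- replicates 2 and 3 of 8 months, the lane 7 run alone, leaving out each mouse, and 3 added after seeing the data, the cross without 3, 2 or 5 libraries that stood apart. Same-numbered mice did not share their deviations from the group means (r from -0.288 to 0.272 over all comparisons), so the numbers were not taken to pair mice. Named genes are the 9 genes, Fmn2, up to 3 passing genes a list and comparison by smallest adjusted p, and the 10 genes most like the set by r (log2 CPM, prior count 2, mean CPM of at least 1). Fxyd7 lies outside this rule and was named after its values were seen, as were the marker genes named singly. Promoters came from RefSeq (GRCm38.p6). The steps were tested on simulated data. Figures were drawn with matplotlib 3.10.9 in Python 3.11.15.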

Additional observations from a re-analysis of the deposited data

Results flagged for a closer look

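Of 63 sets of values of 1 gene in 1 group, 5 held a mouse that lay far from the others by Dixon's ratio, where chance gives about 1 in 20. Calb2 measured 13.8 CPM in FMN2 +/+ APP replicate 8, while the other 8 mice of that label lay between 144 and 243. Igfbpl1 measured 7.57 CPM in FMN2 +/+ APP replicate 9, against 2.13 to 4.15 in the others. With PFC titles, Cd24a measured 3.98 CPM in APP replicate 1, against 2.58 to 2.97. Draxin measured 0 in APP replicate 2, against 0.192 to 0.287, and Igfbpl1 measured 0.365 CPM in wild-type replicate 3, against 0 to 0.104, both on few reads.

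The age difference of Klf7 differed between genotypes by 0.884 on the log2 scale (edgeR adjusted p = 0.0404), with Fmn2+/+ mice going from 27.2 to 14.2 CPM and Fmn2-/- mice from 21.9 to 21.1.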

How the results depend on the processing

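Over 1692 alternative values of single genes, 0 calls changed sign, 1575 stayed on their side of the threshold or within the spread, 14 values of the 9 genes moved by more than 1 SD and the others lost their call. The median of the 9 genes moved with lane as a covariate, to -0.348 with age in Fmn2-/- mice (from -0.112) and to 0.160 between genotypes at 3 months (from 0.054), and the median difference of the age differences (-0.175) ranged from -0.211 to -0.068 with each mouse left out. For the wider genes with age in Fmn2+/+ mice, 3 calls became 8 with DESeq2, 5 with RLE scaling, 5 without the filter, 0 with lane and 2 to 8 with a mouse left out. With age in Fmn2-/- mice, 6 became 0 with lane, 1 with the correction for GC content and length and 3 to 7 with a mouse left out. Between genotypes, 0 became 1 with DESeq2 at 3 months, and at 8 months 1 became 4 with DESeq2, 0 with lane, 0 with replicates 2 and 3 summed, 2 with only the 2 groups compared and 0 to 5 with a mouse left out. For the difference of the age differences, 1 became 3 with DESeq2, 2 without the filter, 0 with lane, 0 with the correction for GC content and length, 0 with the replicates summed and 0 to 4 with a mouse left out. Of the 9 genes in the cross, the 1 call became 0 without the filter, 0 without the 3 libraries, 0 without the 2 high in choroid plexus markers, 0 without all 5 and 0 to 1 with a mouse left out. The 1 wider call there became 0 without the 2 and 0 without all 5, and the 129 calls over all genes became 56 in both. With PFC titles, 1 wider call became 2 without the filter and 1 to 3 with a mouse left out. Over all genes, DESeq2 called 115 against 33 between genotypes at 3 months, 1093 against 589 at 8 months, 1401 against 635 for the difference of the age differences and 304 against 129 in the cross, and lane as a covariate left 4, 0, 3, 12 and 1 in the 5 comparisons of the age experiment. Without Fmn2+/+ replicate 1, 2 or 3 of 8 months, 11, 2538 or 94 genes passed between genotypes at 8 months. Sox11 in the cross, not called, changed sign without the 3 libraries and, with Cd24a, without all 5. The causes were not tested.

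The replicate number also entered the fit as a block. Comparisons of 2 groups then kept the mice whose numbers occur in both, and the difference of the age differences kept all 18 mice. The wider calls with age in Fmn2-/- mice became 1, those for the difference of the age differences 0, and that of Eomes in the cross was lost (0 of the 9 genes, log2 1.25, edgeR adjusted p = 0.0742). Over all genes the block left between 2 and 225 calls in the 5 comparisons of the age experiment. As the mice share only a number, a call lost there is no weaker effect.

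Depth limits the low genes: Eomes, Igfbpl1 and Draxin had 0 to 17 reads per Fmn2-/- mouse at 8 months, so values there carry a large counting error. Lane and age can hardly be separated in the age experiment.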
